A study of Arabidopsis thaliana with 12 samples.

Results

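CML41, CML30 and GLR2.7 are Arabidopsis thaliana genes of calcium signalling. The platform annotation gives each of them 1 probe that it assigns to no other gene, and they are 3 of 691 genes measured in that way. They were chosen with earlier results of these data known. The flu mutant is mutated in FLU, a regulator of chlorophyll biosynthesis. The 6 WT arrays hold RNA of wild type plants and the 6 flu arrays RNA of this mutant. Both are of the ecotype Landsberg, and both were harvested 30 min after light returned at the end of 12 h of darkness. The labels name no plant age, organ, flu allele or number of plants behind an array, and every array is from this single time, so higher or lower means flu against WT and not a change over time. FLU itself has 0 probes in the annotation of the platform, so its transcript could not be used to check the genotype labels.

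Calcium ions carry signals in plant cells. Channels let calcium into the cytosol, and proteins that bind it pass the signal on. Calmodulin-like proteins bind calcium through EF-hand loops. CML41 is one of them, known for acting at plasmodesmata, the channels between plant cells, when the plant meets a bacterial elicitor. CML30 is another, known to be targeted to mitochondria. Glutamate receptor-like proteins form cation channels in membranes, and GLR2.7 is known for a role in the calcium rise and the defence that follow contact with microbial patterns. In the gene table of TAIR10.1 GLR2.7 lies next to GLR2.8, with GLR2.9 beyond it. Probe sequences were not used here, so whether a probe also binds transcripts of related genes was not tested.

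CML41 was higher in flu than in WT, GLR2.7 was lower, and CML30 showed a difference that depended on how the values were treated. On the quantile-normalised scale CML41 was 1.87-fold higher in flu and GLR2.7 was 1.54-fold higher in WT. The values of all probes also depended on probe number, and with that dependence removed CML41 was 2.55-fold higher in flu, CML30 was 1.44-fold higher in flu, and GLR2.7 no longer passed the test. Of the 3 genes, CML41 is the one whose direction and call were the same under every alternative run.

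The table behind these values holds 1 intensity on a linear scale, from 0 to 100, for each of 3439 probes and 12 arrays. The medians of the arrays run from 0.426 to 0.491. Arrays 1 and 2 of a group deviated together, as did arrays 3 and 4 and arrays 5 and 6. The correlations of their deviations from the group mean were 0.21 to 0.68, against -0.55 to -0.04 for other arrays of the same group. Subtracting the mean of the same arrays lowers such correlations by itself, so the negative values lie partly in the calculation. Each such pair was averaged to 1 replicate, giving 3 pair values per group. The labels do not say whether separate plants lie behind the pairs. The p-values below therefore rest on the spread from pair to pair, which may be technical. On all 12 arrays the values of the 3 genes lay above 0.250, the floor to which dimmer normalised values were raised. In bulk RNA, less transcript per cell and fewer cells that hold it cannot be told apart.

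**Figure D1:**
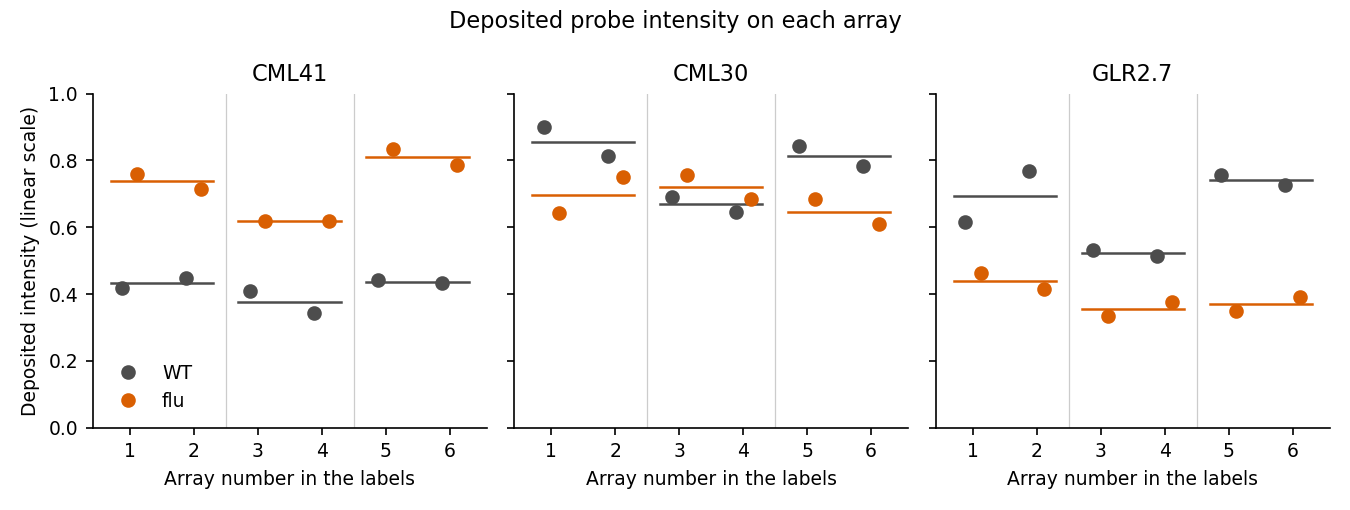
Deposited intensity of the 3 genes on each of the 12 arrays (linear scale, vertical axis from 0), by the array number in the labels; points are arrays, horizontal lines the means of a pair, grey WT and orange flu. The flu points of CML41 all lie above the WT points, those of GLR2.7 all lie below them, and those of CML30 overlap.

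For CML41, the deposited intensity in flu had a lowest value of 0.617, a median of 0.737 and a highest of 0.834 over the 6 arrays. In WT the lowest was 0.343, the median 0.425 and the highest 0.448. The groups did not overlap: the dimmest flu array, array 3, was above the brightest WT array, array 2. After quantile normalisation the pair values in flu were 0.762, 0.627 and 0.840 for arrays 1 and 2, 3 and 4, and 5 and 6. In WT they were 0.434, 0.332 and 0.424. Arrays 3 and 4 gave the lowest pair value in both groups, so that the difference stayed alike: the log2 difference, flu minus WT, was 0.81 in the first pair, 0.92 in the second and 0.99 in the third. The 2 arrays of a pair differed by at most 0.30 on the log2 scale, in WT arrays 3 and 4, which is under each of these 3 differences.

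Fitted over the 3 pair values per group, the log2 difference of CML41 was 0.90 (SE 0.17, 95% interval 0.49 to 1.31, limma adjusted p = 0.0079). The pair values averaged 0.743 ± 0.108 for flu against 0.397 ± 0.056 for WT (SD, n = 3). Differences of this kind were common on these arrays. By limma, 38.9% of the 3128 tested probes passed the threshold of 0.05 after Benjamini-Hochberg adjustment, 17.5% higher in flu and 21.4% lower. With the pair as a block in the fit, 43.8% passed. In the deposited values the 6 flu arrays lay wholly above the 6 WT arrays for 13.7% of the tested probes. The log2 difference of CML41 was above that of 88.1% of the probes, and 23% of the probes differed by more in either direction.

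GLR2.7 stood the other way. Its deposited intensity in flu had a lowest value of 0.335, a median of 0.384 and a highest of 0.462 over the 6 arrays. In WT the lowest was 0.514, the median 0.672 and the highest 0.769. The deposited values of the groups did not overlap, as for 26.2% of the tested probes in this direction. After quantile normalisation they just overlapped, with the highest flu array, array 1, and the lowest WT array, array 4, both at 0.475. The normalised pair values in flu were 0.454, 0.369 and 0.399. In WT they were 0.693, 0.485 and 0.725. WT arrays 3 and 4 were dimmer than the other WT arrays, and the log2 difference was accordingly smallest in that pair, at -0.39, against -0.61 in arrays 1 and 2 and -0.86 in arrays 5 and 6.

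The fitted log2 difference of GLR2.7 was -0.62 (SE 0.19, 95% interval -1.08 to -0.17, limma adjusted p = 0.042), with pair values of 0.407 ± 0.043 in flu and 0.634 ± 0.131 in WT (SD, n = 3). The call lies close to the threshold. It was lost in 7 of the 18 fits that left out 1 pair or 1 array, where the adjusted p from limma reached 0.137, and it was lost without every pair except WT arrays 3 and 4, without flu array 2 and without WT array 3. Without WT arrays 3 and 4 the log2 difference was -0.82 (limma adjusted p = 0.0094).

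CML30 overlapped between the groups. Its deposited intensity in flu had a lowest value of 0.610, a median of 0.684 and a highest of 0.757, and in WT the lowest was 0.647, the median 0.797 and the highest 0.899. Normalised pair values were 0.716, 0.732 and 0.673 in flu and 0.852, 0.628 and 0.796 in WT. The log2 difference was -0.25 in arrays 1 and 2 and -0.24 in arrays 5 and 6, but 0.22 in arrays 3 and 4. The fit gave CML30 a log2 difference of -0.09 (SE 0.14), far from the threshold (limma adjusted p = 0.66). Its 95% interval, -0.44 to 0.26, leaves room for a difference in either direction. The spread lay mostly in WT, at 0.759 ± 0.117, against 0.707 ± 0.031 in flu (SD, n = 3).

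In WT, arrays 3 and 4 were the 2 dimmest arrays for all 3 genes in the deposited values. The same 2 arrays had the highest medians over all probes, 0.491 each, against 0.443 to 0.466 on the other WT arrays. The part of this in the results was not tested beyond leaving the pair out, which gave log2 differences of 0.79 for CML41, -0.22 for CML30 and -0.82 for GLR2.7.

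**Figure D2:**
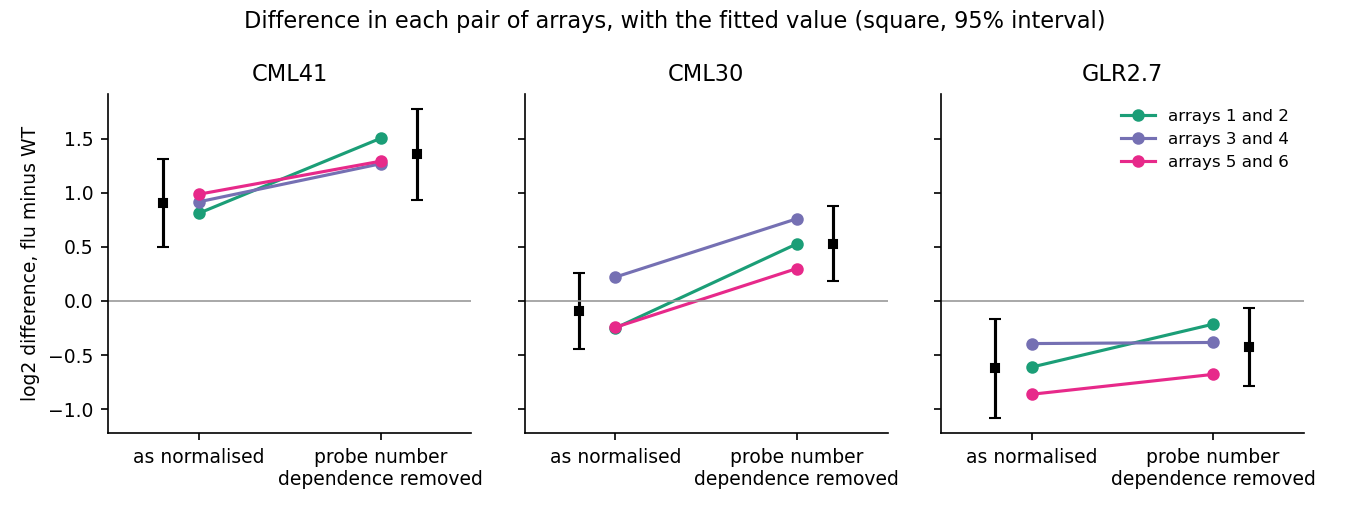
Log2 difference, flu minus WT, of each gene in each pair of arrays (coloured points, joined), on normalised values and with the dependence on probe number removed; black squares are the limma values with their 95% intervals. CML41 lies above 0 in all 3 pairs both ways, GLR2.7 below 0 in all 3 pairs both ways, and CML30 moves from -0.09 to 0.53.

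The dependence on probe number concerns all 3 genes. Probes are numbered up to 4607, and over all tested probes a share of 33.9% of the variance in log2 difference went with the number modulo 288, or 27.6% when adjusted for the number of positions. This period was found on these same data. The number of CML41 is 1240, of CML30 1479 and of GLR2.7 69. For each gene, the other tested probes within 3 numbers of it modulo 288 show what probes at that position did: these are 76 probes for CML41, 75 for CML30 and 65 for GLR2.7. Their median log2 difference was -0.45 around CML41, -0.55 around CML30 and -0.20 around GLR2.7, against -0.04 over all tested probes. All 3 genes thus stood where probes tended to be lower in flu.

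Against these surroundings the genes stood differently. CML41 had a higher log2 difference than 75 of its 76 surrounding probes. CML30 was higher than 57 of its 75, and GLR2.7 was lower than 54 of its 65.

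**Figure D3:**
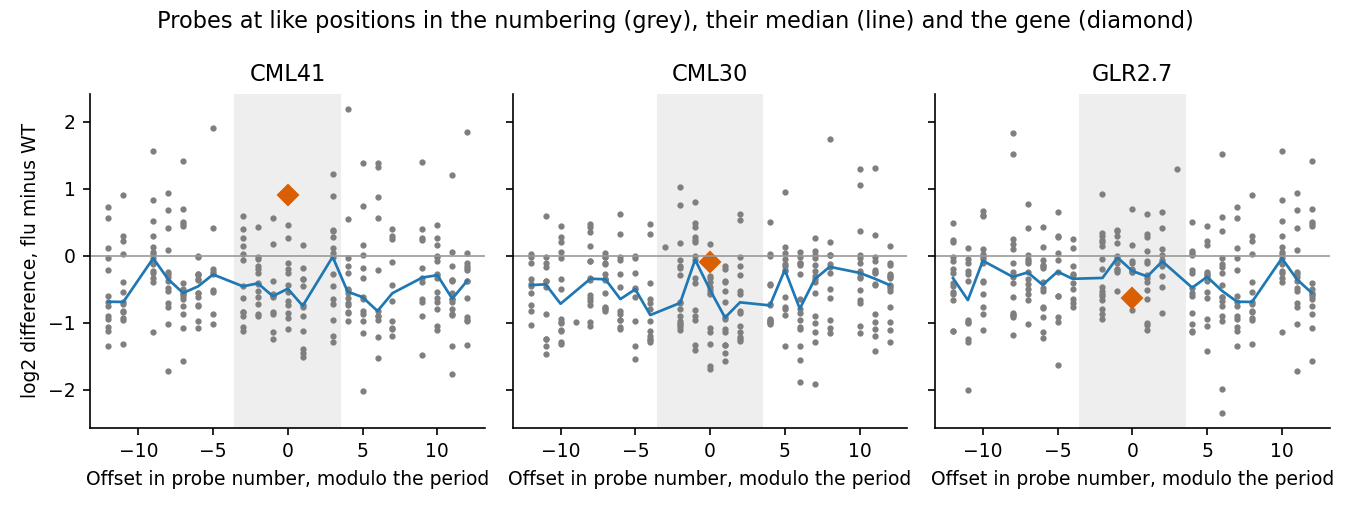
Log2 difference, flu minus WT, of the tested probes (grey points) by their offset from each gene in probe number modulo the period; the line is the median at each offset that holds several probes, the diamond the gene, and the shaded band the window of 3 numbers to each side. The diamond of CML41 lies above all but 1 of the 76 other points in its band, while those of CML30 and GLR2.7 lie within theirs.

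With the dependence removed, by subtracting from each array the median deviation of these surrounding probes, the log2 difference of CML41 was 1.502, 1.267 and 1.291 in the 3 pairs. The fitted value was 1.35 (SE 0.18, 95% interval 0.93 to 1.77, limma adjusted p = 0.0019), and 4.67% of the tested probes then differed by more. The corrected log2 levels of the 6 flu arrays, -0.51 to 0.01, stayed clear of those of the 6 WT arrays, -1.91 to -1.29. After this correction 36.2% of all probes passed, 19% higher in flu and 17.1% lower (42.6% in all with the pair as a block), and 16.9% had all 6 flu arrays above all 6 WT arrays.

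For CML30 the corrected log2 difference was 0.53, 0.76 and 0.30 in the 3 pairs, above 0 in each. The fitted value was 0.53 (SE 0.15, 95% interval 0.18 to 0.87, limma adjusted p = 0.028). The corrected log2 levels no longer overlapped, with flu at -0.50 to -0.002 and WT at -0.92 to -0.54. The direction thus turned with the correction, and the size came from what was subtracted: the subtracted profile, flu minus WT, was -0.78, -0.54 and -0.54 in the 3 pairs, while the uncorrected differences ran from -0.25 to 0.22. Corrected only by the class of the probe number modulo 6, CML30 stood at 0.052 (limma adjusted p = 0.80). The call was also lost without flu arrays 1 and 2, flu arrays 3 and 4, WT arrays 3 and 4 or WT arrays 5 and 6 (limma adjusted p from 0.051 to 0.111).

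For GLR2.7 the corrected log2 difference was -0.21, -0.38 and -0.68 in the 3 pairs. The fitted value was -0.43 (SE 0.15, 95% interval -0.78 to -0.07, limma adjusted p = 0.063), so it did not pass over all probes. The corrected log2 levels overlapped, with flu at -1.35 to -1.05 and WT at -1.09 to -0.48. The value depended on how the surroundings were drawn. With the median of the 12 neighbours on each side in plain probe number subtracted, it was -0.05 (limma adjusted p = 0.86), and with windows reaching 6 and 12 numbers to each side it was -0.34 and -0.32. Without WT arrays 1 and 2 the corrected difference was -0.49 and passed (limma adjusted p = 0.037).

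The 2 calmodulin-like genes were compared with each other and with GLR2.7 through their log2 differences in the 3 pairs, 3 comparisons on each of the 2 scales. CML41 exceeded CML30 by 1.06, 0.70 and 1.23 in the 3 pairs, and by 0.97, 0.51 and 0.99 with the dependence on probe number removed. The mean excess was 0.996 ± 0.273 and 0.824 ± 0.274 (SD, n = 3). CML41 exceeded GLR2.7 by 1.53 ± 0.28, and by 1.78 ± 0.17 with the dependence removed. CML30 exceeded GLR2.7 by 0.53 ± 0.15, and by 0.95 ± 0.20 with the dependence removed. The order CML41, CML30, GLR2.7 of the log2 differences therefore held in all 3 pairs and on both scales. An exact two-sided sign-flip test over 3 pairs gave p = 0.25 in each of these comparisons, the smallest value it can give, so it cannot pass a threshold of 0.05, with or without adjustment.

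**Figure D4:**
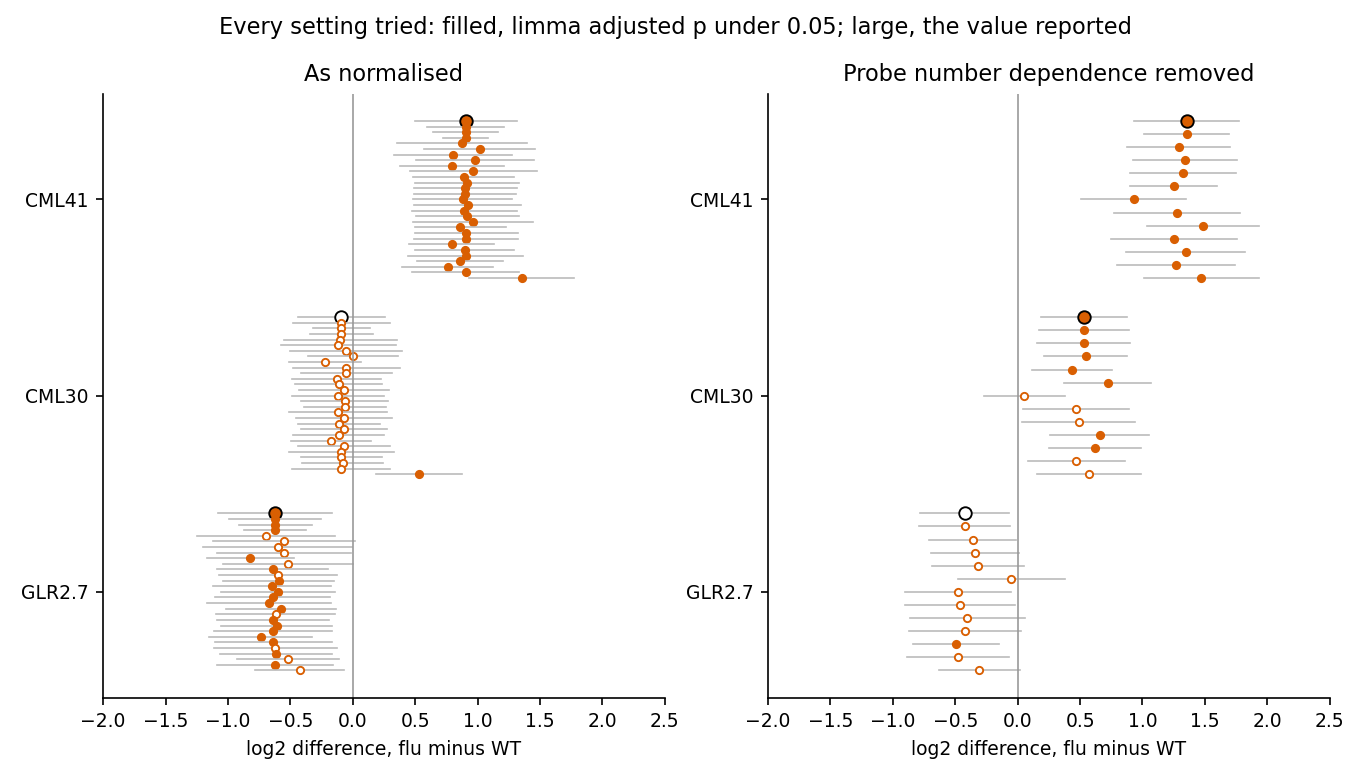
Log2 difference, flu minus WT, with 95% interval for each gene under every setting, on normalised values (left; the lowest point of each gene is the fit with the probe number dependence removed) and with that dependence removed (right). Filled points have a limma adjusted p under 0.05 and large points are the values given first; all points of CML41 are filled, while CML30 and GLR2.7 hold filled and open points on both sides.

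Other genes of calcium signalling were scarcely measured. A list drawn by symbol and name from the gene table holds 270 genes, of which 6 had a probe of their own and 5 were tested. The list takes any symbol with a listed start, as CBL below shows, so 270 is not a count of calcium genes. IQD22, of the calmodulin-binding IQ-domain family, was the 1 not tested, since it lay at the floor on all 12 arrays. Besides the 3 genes above, the tested ones were iqd32, of the same family as IQD22, and CBL. CBL entered by its symbol and encodes cystathionine beta-lyase, an enzyme of methionine synthesis, so it is not a calcium gene. Of these 5, CML41 was higher in flu, GLR2.7 was lower and the other 3 did not pass. The median log2 difference was -0.09 over the 5, or -0.03 without CBL, beside -0.04 over all 620 tested genes with a probe of their own, of which 36.8% passed. After the correction for probe number, CML41 and CML30 were higher in flu and 0 were lower, the median was -0.15, or 0.19 without CBL, and 36.9% of the 620 genes passed. A share of 2 in 5 is thus near the background of all genes. Without CBL it is 2 in 4, and 3 of these 4 are the genes chosen here, so the share says little about calcium genes.

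The deposited intensity of iqd32 had a lowest value of 0.227, a median of 0.267 and a highest of 0.376 in flu, and a lowest of 0.192, a median of 0.284 and a highest of 0.424 in WT. The groups overlapped and several arrays lay at the floor, 3 of 6 in WT and 1 of 6 in flu. The log2 difference of iqd32, 0.04 (SE 0.16), did not pass (limma adjusted p = 0.88), nor did its corrected value of -0.15. CBL ranged from 0.027 to 0.436 in flu and from 0.049 to 0.921 in WT, and was above the floor on 3 of 6 flu and 5 of 6 WT arrays. The fitted log2 difference of CBL, -0.83 (SE 0.48), did not pass (limma adjusted p = 0.22), nor did its corrected value of -0.47. A further 4 probes are assigned to a gene of the list together with other genes, and no gene was named from them.

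The genes whose log2 values ran most like those of each gene over the 12 arrays were found among the other 619 tested genes with a probe of their own. The arrays share the 2 groups, the pairs and the dependence on probe number, so these correlations are a description. For CML41 they were AT3G29410, AT1G63610 and AT5G13260, with Pearson's r of 0.945, 0.944 and 0.942, and 0.886, 0.850 and 0.938 with the dependence removed. Each of these was above the floor on 7 of the 12 arrays. AT5G13260 kept the closest likeness of the 3 after the correction, with 9 genes above it. For GLR2.7 they were AT1G61590, AT4G34310 and AT4G08630, at 0.945, 0.945 and 0.940, and 0.803, 0.827 and 0.375 with the dependence removed.

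For CML30 the 3 genes were AT5G17280, PSAN, a subunit of photosystem I, and Z-ISO, an isomerase of carotenoid synthesis. Their r values were 0.827, 0.827 and 0.814. After the correction they were -0.491, 0.872 and 0.745, so the likeness to AT5G17280 turned its sign, while PSAN stayed close, with 20 genes above it. PSAN had a log2 difference of -0.06 before the correction (limma adjusted p = 0.85) and of 0.35 after it (limma adjusted p = 0.17). The log2 difference of Z-ISO was -0.17, and 0.28 with the dependence removed, and it did not pass either way.

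As for the tissue, of the markers listed the arrays measured those of green tissue only: the mean of the normalised pair values of LHB1B2, an antenna gene, was 16.4 in flu against 19.7 in WT, and that of PSBW, a gene of photosystem II, was 18.5 against 18.0. That of PSBY, another photosystem II gene, was 1.47 in flu against 1.33 in WT. Markers of root, seed and pollen had no tested probe of their own and were not analysed here.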

How the data were processed

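Per the file headers, the deposited table holds 1 value per probe and array. These values are taken as intensities on a linear scale, and how the authors made them, including scanner, background correction and scaling, is not stated in them or in the labels. Arrays were quantile normalised, values under the 25th percentile (0.250) were set to that floor before taking log2. Of the probes, 311 never exceeded the floor and were left out of the tests, and 3128 remained. Quantile normalisation removes differences in level between arrays: on values as deposited the median log2 difference of all probes was -0.12, against -0.04. Arrays 1 and 2, 3 and 4, and 5 and 6 were averaged within each group, and the 3 pair values per group entered a two-sided moderated test (limma 3.58.1, functions lmFit and eBayes, under R 4.3.3) with Benjamini-Hochberg adjustment over all tested probes and a threshold of 0.05. The number of arrays limits the precision.

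The dependence on probe number was removed per array by subtracting a median deviation. This was the median, over the other probes within 3 numbers modulo 288, of the deviation from each probe's mean over the arrays. A part of the dependence remained. After this step 13.2% of the variance in log2 difference still went with the number modulo 288, or 4.97% when adjusted for the number of positions. Deviations of flu and WT pair means with the same numbers correlated at 0.46, 0.38 and 0.26. On this evidence, and that of no label, the differences by pair set flu and WT arrays of the same number against each other. The main fits and their p-values did not use this pairing. A fit that blocks on the pair was an alternative. The procedure was also run on simulated data with known differences and a known position effect. That effect was smooth, had the same period and was alike in every flu array. The simulation therefore cannot show how the procedure does where the effect differs from pair to pair, as it did here.

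Gene names come from the platform annotation in GEO, possibly outdated, and symbols from the gene table of TAIR10.1. It gives 1 gene to 692 of the 3439 probes (690 found in the gene table) and several to 870, and 1877 stay unnamed here. A gene with more than 1 probe was represented by the brighter one. No source used here names the genome build of the probes, and no coordinates or sequences are printed. Genes named are the 3 members, the other tested genes of the calcium list and, per member, the 3 genes with the highest Pearson's r. Members, lists, pairs and period were chosen with earlier results of these data known.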

Additional observations from a re-analysis of the deposited data

How the results depend on the processing

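Alternatives changed the replicates, the scaling, the floor, the filter and the removal of the probe number dependence. CML41 kept its direction and its call in all 28 alternatives to the main fit (0.76 to 1.35). The highest of these is the fit with the dependence removed, and the next is 1.02, without flu arrays 3 and 4. CML41 also kept both in all 12 alternatives with the dependence removed (0.93 to 1.48). CML30 reversed from -0.09 to 0.53 when the dependence was removed, and kept its direction without a call in the other 27. After removal, CML30 ran from 0.47 to 0.66 when pairs were left out, and was 0.052 with correction by the class modulo 6. GLR2.7 lost its call in 10 of 28: at -0.62 with the floor at the 10th percentile (limma adjusted p = 0.051), at -0.52 with a pseudocount of 0.1 and no floor, at -0.43 with the dependence removed, and in 7 of the 18 fits with arrays left out, where it ran from -0.69 to -0.52; all 18 ran from -0.82 to -0.52. After that removal it ran from -0.49 to -0.31 when pairs were left out.

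The calcium list held 2 calls, 1 with the floor at the 10th percentile or with no floor, and 3 (CBL, CML41 and GLR2.7) with the 12 arrays as separate samples and the array number as replicate block. It held 1 to 2 calls when arrays were left out. After the correction for probe number it held 2, 1 with correction by class modulo 6, and 1 to 4 when pairs were left out; the 4, without WT arrays 1 and 2, were CBL, CML30, CML41 and GLR2.7. Over all probes, 1216 passed, and 1892 with the 12 arrays taken as separate samples and the array number as replicate block. With the dependence removed 1131 passed, and 637 to 1148 when pairs were left out. The pair as replicate block gave 1371 calls, or 1332 with the dependence removed. It changed no call of the 3 genes: the limma adjusted p was 0.0051 for CML41, 0.66 for CML30 and 0.022 for GLR2.7, and the other settings without a value here left calls and directions of the 3 genes as they were. The dimness of a probe is limited by the floor, which none of the 3 genes reached on any array.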

Other observations

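After the group means were subtracted, the log2 values of CML41 and GLR2.7 correlated at 0.718 over the 12 arrays, and at 0.667 with the dependence on probe number removed. CML41 and CML30 correlated at 0.438, and CML30 and GLR2.7 at 0.528. With the dependence removed these were -0.012 and -0.032. The arrays share pairs, so these values are a description and carry no p. For the 5 tested list genes, the largest gap of an array to the nearest one, as a share of the range of its group, was 0.526. It belonged to WT array 4 in CML41 and was under Dixon's critical value for 6 arrays. Such a gap cannot show 2 arrays that deviate together. For CBL, WT arrays 1 and 2 had a normalised pair value of 0.273, against 0.747 and 0.858 in the other WT pairs.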
